A study of Homo sapiens with 6 samples.

Results

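The 49 genes described here encode the machinery that copies DNA and supplies its building blocks: origin licensing factors, the replicative helicase, the clamp and its loader, the DNA polymerases, nucleotide synthesis enzymes, E2F regulators and factors that restore chromatin behind the fork. They were chosen by gene symbol, and all 49 were found among the 37822 genes of the deposited table. All 49 also passed the filter on low counts, so the description covers every member. The samples were 6 RNA libraries of Huh7, a human hepatocellular carcinoma cell line, in 2 groups of 3. In the FLAG group, which the labels call wild type (WT), cells were infected with a control lentivirus carrying the FLAG tag. In the VPS72 group they were infected with a lentivirus that overexpresses VPS72, a subunit shared by the SRCAP and TIP60 chromatin remodelling complexes, known as a chaperone of the histone variant H2A.Z. Both groups therefore carried a lentivirus, produced in HEK293T cells and left on the Huh7 cells for 24 h, and both came from the same tumour line, whose cells divide continuously. Whether the 3 replicates of a group were grown as separate cultures is not said in the labels, so the p-values describe the scatter among these libraries, and that scatter may be technical.

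VPS72 itself measured 26.7, 21.3 and 23.8 CPM (counts scaled to the size of the library) in FLAG replicates 1 to 3 and 1150.33, 1173.34 and 1160.7 CPM in VPS72 replicates 1 to 3. The groups were far apart, with a log2 fold change of 5.60 ± 0.06 (SE; edgeR quasi-likelihood test, Benjamini-Hochberg adjusted p = 1.85e-18). Total counts ran from 21345279 to 29091824 per library, and the members held between 106 and 6187 counts each in a library. All 12 hepatocyte markers listed were tested, with a summed level of 19614 to 20427 CPM in FLAG and 22131 to 22933 CPM in VPS72. Markers of the virus producer line HEK293T summed to 9.77 to 12.8 CPM in FLAG and 8.90 to 11.3 CPM in VPS72, with 2 of 8 high enough to be tested and NEFL at 0 in all 6 libraries. Fibroblast markers (5 of 7 tested) summed to 14.8 to 16.4 and 14.4 to 15.6 CPM, immune markers (2 of 6 tested) to 10.9 to 12.5 and 13.6 to 14.4 CPM, and endothelial markers (1 of 5 tested) to 2.84 to 4.55 and 4.13 to 4.94 CPM, in FLAG and VPS72 respectively. Most of the immune sum was 1 gene, LYZ, at 10.5, 12.2 and 10.1 CPM in FLAG and 12.7, 13.8 and 13.2 CPM in VPS72. CD14, the other immune marker tested, had means of 0.535 CPM in FLAG and 0.523 CPM in VPS72. The part of the hepatocyte and immune sums, which were higher in every VPS72 library, in the values below was not tested.

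Replication begins when the origin recognition complex (ORC), CDC6 and CDT1 load rings of MCM2 to MCM7 onto DNA, a step that geminin (GMNN) blocks by binding CDT1. CDC45 and the GINS complex then turn the ring into a moving helicase, and polymerases held by the sliding clamp PCNA copy the unwound strands, which RPA coats, from nucleotides made by ribonucleotide reductase (RRM1 and RRM2), TYMS and TK1. Many of these genes are induced together as cells enter S phase, when E2F transcription factors are released from the retinoblastoma protein, so their summed mRNA is commonly read as a measure of proliferation.

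Because E2F regulation is the feature this family is known for, promoters were searched for its sites on both strands. The E2F site was taken as any of TTTCGCGC or TTTGGCGC or TTTCCCGC or TTTGCCGC, some of which overlap when read from opposite strands. RefSeq windows of 300 bases (250 before and 50 after the annotated start, GRCh38.p14) were found for 43 of the 49 members. An E2F match lay in 23 of the 43 (53.5%), against 703 of 10625 tested genes with a window (6.62%) and 1090 of 27305 genes in the whole promoter table (3.99%). The motif CCAAT lay in 26 of the 43 (60.5%), against 4659 of the 10625 tested genes (43.9%). The cell cycle homology region TTTGAA lay in 2 of the 43 (4.65%), against 1539 of the 10625 (14.5%). A match is a description of letters in the window, not evidence of binding, and no match says only that these letters are absent there. The 200 bases before the annotated start are shown for 7 members that span the results below, from the smallest p (RRM2) to the lowest fold change (PRIM1), read 5′ to 3′ on the gene's strand. Capitals mark E2F matches and CCAAT matches, the latter reading ATTGG where they lie on the opposite strand.
The windows are RRM2 at chr2:10122539-10122738 (plus strand), GMNN at chr6:24775213-24775412 (plus strand) before the second start listed for that gene, MCM6 at chr2:135876444-135876643 (minus strand), MCM7 at chr7:100101398-100101597 (minus strand), PCNA at chr20:5126623-5126822 (minus strand), E2F1 at chr20:33686386-33686585 (minus strand) and PRIM1 at chr12:56752324-56752523 (minus strand).
RRM2: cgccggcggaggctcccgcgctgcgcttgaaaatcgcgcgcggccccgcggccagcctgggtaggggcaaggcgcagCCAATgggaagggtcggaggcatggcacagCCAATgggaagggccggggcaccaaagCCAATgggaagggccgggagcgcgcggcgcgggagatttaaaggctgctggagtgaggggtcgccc
GMNN: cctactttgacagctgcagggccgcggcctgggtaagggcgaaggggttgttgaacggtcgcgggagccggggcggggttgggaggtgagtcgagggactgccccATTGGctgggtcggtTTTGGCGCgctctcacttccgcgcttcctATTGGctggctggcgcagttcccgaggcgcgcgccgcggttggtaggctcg
MCM6: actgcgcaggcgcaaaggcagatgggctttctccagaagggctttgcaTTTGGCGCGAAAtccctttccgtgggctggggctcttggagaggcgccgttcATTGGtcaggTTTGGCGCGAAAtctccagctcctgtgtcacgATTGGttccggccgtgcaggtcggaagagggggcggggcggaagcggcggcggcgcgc
MCM7: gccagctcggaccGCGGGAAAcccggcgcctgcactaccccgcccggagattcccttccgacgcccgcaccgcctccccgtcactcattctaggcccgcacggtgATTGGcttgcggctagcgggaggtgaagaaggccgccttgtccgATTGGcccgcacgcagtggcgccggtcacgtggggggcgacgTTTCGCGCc
PCNA: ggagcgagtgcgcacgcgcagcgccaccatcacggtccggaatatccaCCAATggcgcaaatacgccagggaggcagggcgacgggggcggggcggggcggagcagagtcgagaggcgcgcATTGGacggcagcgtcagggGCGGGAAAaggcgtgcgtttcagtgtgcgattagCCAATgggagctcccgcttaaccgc
E2F1: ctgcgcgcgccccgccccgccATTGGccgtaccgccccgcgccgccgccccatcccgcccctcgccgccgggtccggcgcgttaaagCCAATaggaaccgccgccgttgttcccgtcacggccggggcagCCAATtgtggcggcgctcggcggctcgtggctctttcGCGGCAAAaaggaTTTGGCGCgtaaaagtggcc
PRIM1: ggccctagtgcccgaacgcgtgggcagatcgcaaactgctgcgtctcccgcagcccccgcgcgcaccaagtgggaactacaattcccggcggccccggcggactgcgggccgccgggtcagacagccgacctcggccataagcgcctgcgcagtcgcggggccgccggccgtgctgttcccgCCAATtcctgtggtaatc
MCM6 held 4 E2F matches, in 2 overlapping pairs that began 152 and 148, and 90 and 86, bases before the start. MCM7 held matches at 187 and 9 bases, E2F1 at 33 and 20, GMNN at 80 and PCNA at 59. RRM2 had none of these letters in the window but 3 CCAAT matches, and PRIM1 had 1 CCAAT match.

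**Figure D1:**
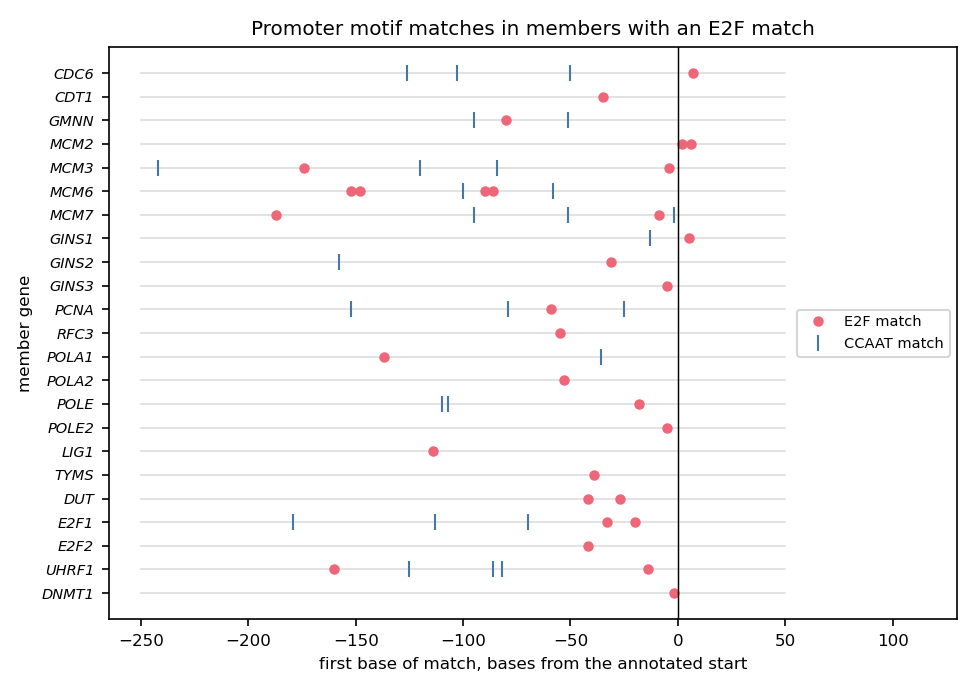
Position of E2F matches (circles) and CCAAT matches (bars), as bases from the annotated start (0) to the first base of the match, in the promoter windows of the 23 members with an E2F match. MCM6 holds 4 E2F matches, and most members hold 1 or 2.

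No member passed the test for a difference between VPS72 and FLAG. By edgeR's quasi-likelihood test with Benjamini-Hochberg adjustment over 14253 genes at 0.05, 0 of 49 members were called, against 88 of all tested genes (0.617%; 60 higher, 0.421%, and 28 lower, 0.196%). At an unadjusted p under 0.05, 7 members were higher (14.3%; GMNN, MCM2, MCM3, PCNA, POLD2, RPA1 and RRM2) and 0 were lower, against 6.03% higher and 5.51% lower among all tested genes. Limma-voom also called 0 members, against 0.898% of all tested genes, and DESeq2 called 1, RRM2 (adjusted p = 0.00908), against 1.75% of all tested genes. Among the members, 8 had every VPS72 library above every FLAG library (16.3%; ORC1, GMNN, MCM2, MCM3, GINS3, POLD2, RPA1 and RRM2), against 8.76% of all tested genes. In 0 members did every VPS72 library lie below every FLAG library, against 8.47% of all tested genes, and in 41 the groups overlapped. Log2 fold changes were above 0 in 37 of 49 members (75.5%), against 48.8% of all tested genes.

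The differences were small. The members' median log2 fold change was 0.07, or 4.78% higher in VPS72, and the median over all tested genes was -0.00. Single members ran from -0.15 (PRIM1) to 0.17 (GINS2). The middle of the distribution was narrow: from the 5th to the 95th percentile, members spanned -0.07 to 0.15, whereas all tested genes spanned -0.45 to 0.28. All tested genes reached down to 0.253 CPM with a median of 21.3 CPM, against a median of 42.9 CPM for the members. The part of these levels in the width was not tested. Over all 49 members, the 95% intervals reached down to -24.4% (PRIM1) and up to 34.0% (GINS2), and 7 intervals lay wholly above 0 with 0 below. The 9600 tested genes with mean levels between the lowest and highest member (4.97 to 219 CPM) had a median of -0.00, with 49.6% above 0 and 9.04% with every VPS72 library higher. Members at higher levels had somewhat higher fold changes, with a correlation of log2 fold change with log CPM of 0.35 over the 49 members, which share libraries and are not independent.

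**Figure D2:**
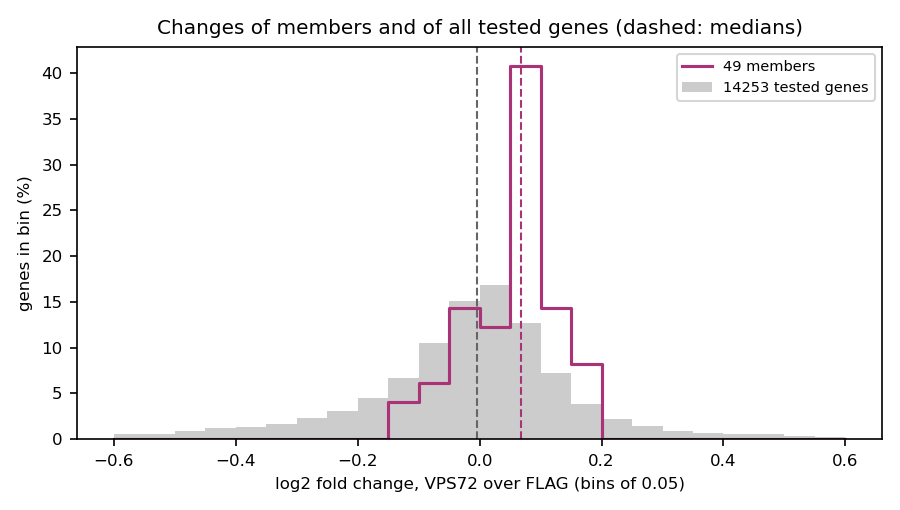
Distribution of log2 fold changes (VPS72 over FLAG, horizontal axis) for the 49 members and for all 14253 tested genes, as the percentage of each set per bin, shown from -0.6 to 0.6. The members lie within -0.15 to 0.17 with their median at 0.07, inside the range of all tested genes.

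The members' summed level was 3155, 3258 and 3236 CPM in FLAG replicates 1 to 3 and 3395, 3429 and 3315 CPM in VPS72 replicates 1 to 3. All 3 VPS72 libraries lay above all 3 FLAG libraries, with means of 3216 ± 54.2 and 3379.6 ± 58.8 CPM (SD, n = 3), a difference of 5.07%. On the log2 scale the difference was 0.07, and 0.04 where libraries were scaled by their total alone or where the trend of fold change with abundance was removed. The members' median log2 fold change minus that of all tested genes was 0.0712, 0.0713 and 0.0564 in these 3 settings. In summed level, the lowest VPS72 library exceeded the highest FLAG library by less than either group's own range. As a share of each library's counts, the members took 0.319%, 0.330% and 0.326% in FLAG and 0.336%, 0.339% and 0.327% in VPS72, which overlapped. VPS72 replicate 3 lay closest to FLAG: 28 of its 49 members were above their FLAG mean, as were 29 in FLAG replicate 3, whereas VPS72 replicates 1 and 2 had 38 and 39. In bulk RNA, more cells in S phase and more of these mRNAs per cell cannot be told apart.

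**Figure D3:**
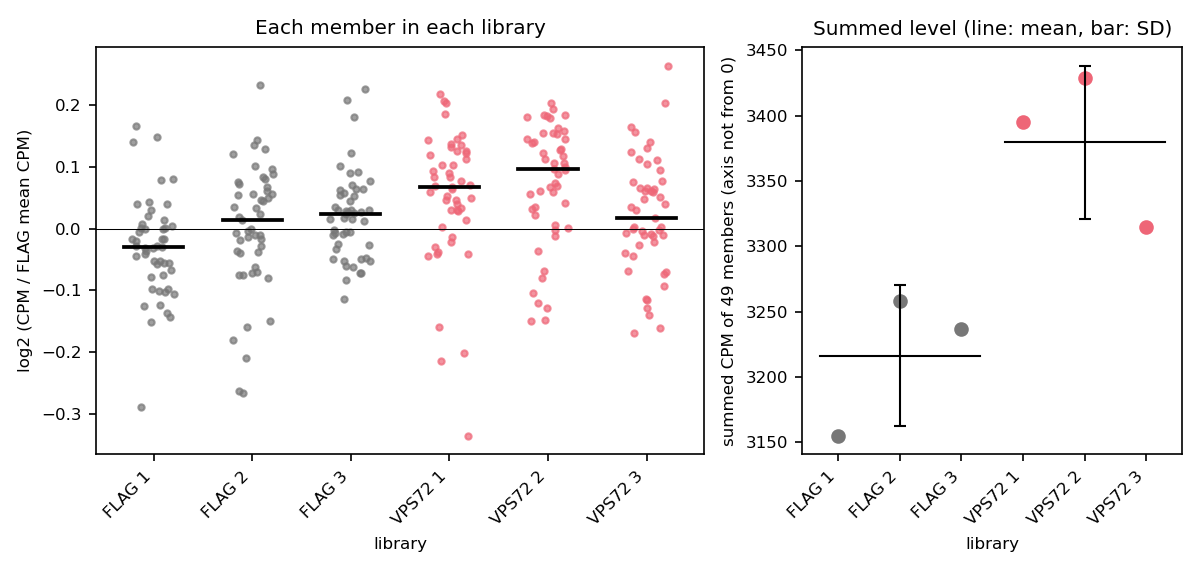
Members' levels in each of the 6 libraries, 3 FLAG and 3 VPS72, as log2 against the FLAG mean of the same gene, with each library's median over the 49 members (left), and their summed CPM with the mean and SD of each group (right, axis not from 0). The medians are -0.03, 0.01 and 0.02 in FLAG and 0.07, 0.10 and 0.02 in VPS72. By its median VPS72 replicate 3 lies among the FLAG libraries, whereas its summed level, 3315 CPM, lies above all of them.

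The licensing genes (6 members) had a median log2 fold change of 0.05, and 4 of 6 were positive. GMNN, the inhibitor of CDT1, measured 41.8, 42.3 and 38.6 CPM in FLAG and 43.6, 46.4 and 45.1 CPM in VPS72. Every VPS72 library of GMNN lay above every FLAG library, at a log2 fold change of 0.14 ± 0.06 (SE; edgeR, Benjamini-Hochberg adjusted p = 0.419). ORC1, the largest subunit of the origin recognition complex, measured 47.1, 47.9 and 49.04 CPM in FLAG and 55.8, 50.6 and 49.7 CPM in VPS72. Its groups did not overlap either, though VPS72 replicate 3 lay within 1 CPM of FLAG replicate 3, and the log2 fold change was 0.12 ± 0.06 (SE; edgeR, Benjamini-Hochberg adjusted p = 0.492). CDC6, the ATPase that helps load the helicase, measured 80.5, 82.8 and 87.9 CPM in FLAG and 85.5, 87.2 and 87.6 CPM in VPS72, so that FLAG replicate 3 was the highest of the 6. The log2 fold changes of the other members were 0.04 for ORC2, -0.02 for ORC6 and -0.06 for CDT1. CDT1, named here after its values were seen, was uneven within both groups: 28.0, 20.8 and 26.1 CPM in FLAG and 19.8, 27.3 and 24.7 CPM in VPS72. Its lowest libraries, FLAG replicate 2 and VPS72 replicate 1, were also the lowest for POLD1, and both transcripts are rich in G and C (64.9% and 64.8%). The others of the 5 members with a GC content of at least 60% did not share both low libraries. Within each group, E2F1 (62.5%) was lowest in FLAG replicate 1 and VPS72 replicate 1. TK1 (61.6%) was lowest in FLAG replicate 1 and VPS72 replicate 3, and LIG1 (60.7%) in FLAG replicate 2 and VPS72 replicate 3. Over the 49 members, GC content correlated with the difference from FLAG replicate 2 at 0.27 (FLAG replicate 1) and 0.28 (FLAG replicate 3). With the difference from VPS72 replicate 1 it correlated at 0.32 (VPS72 replicate 2) and -0.07 (VPS72 replicate 3), and with the VPS72 to FLAG fold change at 0.06. The 49 members include CDT1 and POLD1 themselves. By rank, these 5 correlations were 0.21, 0.33, 0.15, -0.22 and 0.07, in the same order. Over all 14139 tested genes with a GC value they were, not by rank, 0.15, 0.25, 0.19, 0.10 and -0.02.

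The 6 subunits of the MCM helicase ring had fold changes above 0 in 6 of 6, with a median log2 of 0.08 and a range of 0.05 (MCM5) to 0.12 (MCM2). Their summed level was 824, 824 and 839.7 CPM in FLAG and 889, 894 and 859 CPM in VPS72, a difference of 6.23% with no overlap. MCM2 measured 131, 136 and 136 CPM in FLAG and 155, 148 and 136 CPM in VPS72. The spread lay in the VPS72 group, whose replicate 3 sat just above FLAG, and the log2 fold change was 0.12 ± 0.05 (SE; edgeR, Benjamini-Hochberg adjusted p = 0.322). MCM3 measured 167, 166 and 169 CPM in FLAG and 183, 175 and 179.9 CPM in VPS72. Its groups did not overlap, with SDs of 1.59 and 3.74 CPM, and its log2 fold change was 0.10 ± 0.04 (SE; edgeR, Benjamini-Hochberg adjusted p = 0.32). MCM4 measured 210.4, 211 and 217 CPM in FLAG and 215, 231 and 230.2 CPM in VPS72, with VPS72 replicate 1 inside the FLAG range. MCM5, MCM6 and MCM7 overlapped between groups as well, at log2 fold changes of 0.05, 0.07 and 0.07. Per kilobase of transcript, the FLAG levels of the subunits were 52.1 CPM per kb for MCM3, 50.9 for MCM4, 46.3 for MCM7, 37.0 for MCM2, 25.2 for MCM6 and 23.6 for MCM5. The SDs were 0.496 for MCM3, 0.918 for MCM4, 1.12 for MCM6 and 0.966 for MCM5. The order of MCM3 and MCM4, and that of MCM6 and MCM5, was not tested.

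Among the factors that activate the helicase (6 members), 5 were positive and the median was 0.08. GINS2, a subunit of the GINS complex, had the highest fold change with RPA1 close behind, and a low level, at 10.4, 8.91 and 10.3 CPM in FLAG and 10.4, 11.02 and 11.9 CPM in VPS72. Its groups overlapped at 1 library and its interval was wide, with a log2 fold change of 0.17 ± 0.12 (SE; edgeR, Benjamini-Hochberg adjusted p = 0.661) that was 0.10 without FLAG replicate 2, below RFC3 at 0.19. GINS3 measured 9.55, 10.9 and 10.7 CPM in FLAG and 11.4, 11.2 and 11.6 CPM in VPS72, with no overlap (log2 fold change 0.13 ± 0.11, SE). GINS1 was the most abundant of the complex, at 128, 143 and 128 CPM in FLAG and 143, 138 and 140.2 CPM in VPS72, and FLAG replicate 2 lay within the VPS72 range. Per kilobase, GINS1 in FLAG was at 40.9 ± 2.61 CPM per kb, above GINS4 (7.88 ± 0.316), GINS3 (4.58 ± 0.332) and GINS2 (3.70 ± 0.316; all SD, n = 3), although the 4 subunits form a complex together. CDC45, the partner of GINS in the helicase, MCM10 and GINS4 had log2 fold changes of 0.08, 0.03 and -0.00, and their groups overlapped. Scaling by library size alone turned MCM10, as well as POLD3 and CHAF1B below, to the opposite sign.

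PCNA, the sliding clamp, measured 135, 144 and 131 CPM in FLAG and 149.8, 150.4 and 144 CPM in VPS72. FLAG replicate 2 and VPS72 replicate 3 were level, so the groups overlapped, and the log2 fold change was 0.12 ± 0.05 (SE; edgeR, Benjamini-Hochberg adjusted p = 0.322). It had the highest FLAG level of all members per kilobase, 100.5 ± 4.95 CPM per kb (SD, n = 3), above RRM2 at 53.3 ± 1.78 and MCM3 at 52.1 ± 0.496, which did not differ from each other beyond their spread. The subunits of replication factor C, which loads the clamp, differed in sign. RFC3 measured 39.0, 46.3 and 40.5 CPM in FLAG and 43.3, 47.7 and 44.8 CPM in VPS72, and RFC4 measured 20.6, 22.6 and 20.5 CPM in FLAG and 18.5, 20.7 and 18.9 CPM in VPS72. Both overlapped between groups, at log2 fold changes of 0.11 ± 0.07 and -0.13 ± 0.09 (SE). RFC1, RFC2 and RFC5 were at -0.07, -0.00 (positive with DESeq2's size factors) and 0.04, and the median over clamp and loader was 0.02.

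The 9 polymerase and primase members had the lowest median, 0.01, with 5 positive and 4 negative. POLD2, an accessory subunit of the lagging strand polymerase delta, measured 72.8, 71.9 and 73.7 CPM in FLAG and 84.0, 82.5 and 75.9 CPM in VPS72. Its groups did not overlap and FLAG was even, with a log2 fold change of 0.15 ± 0.05 (SE; edgeR, Benjamini-Hochberg adjusted p = 0.219). POLE, the catalytic subunit of the leading strand polymerase epsilon, measured 191, 193 and 197 CPM in FLAG and 206, 209.6 and 194 CPM in VPS72. Here VPS72 replicate 3 lay within the FLAG range, and the log2 fold change was 0.07 ± 0.04 (SE). PRIM1, the catalytic subunit of primase, had the lowest fold change of all members, at 12.05, 11.5 and 15.1 CPM in FLAG and 11.5, 11.8 and 11.5 CPM in VPS72. FLAG replicate 3 alone lay above the other 5 libraries, which were level, and the log2 fold change was -0.15 ± 0.12 (SE; edgeR, Benjamini-Hochberg adjusted p = 0.715). Without FLAG replicate 3 it was -0.02, and RFC4 was lower at -0.16, so the place of PRIM1 at the end of the list rests on that library. The remaining members overlapped between groups, at log2 fold changes of 0.07 (POLA1), 0.05 (POLA2), 0.01 (POLD3), -0.02 (PRIM2), -0.03 (POLE2) and -0.05 (POLD1). POLD1, the catalytic subunit of polymerase delta and also named after its values were seen, showed the pattern given for CDT1, with 41.2, 31.2 and 39.8 CPM in FLAG and 32.2, 41.9 and 34.5 CPM in VPS72. POLA2 was the lowest member per kilobase, at 1.31 ± 0.147 CPM per kb in FLAG (SD, n = 3).

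**Figure D4:**
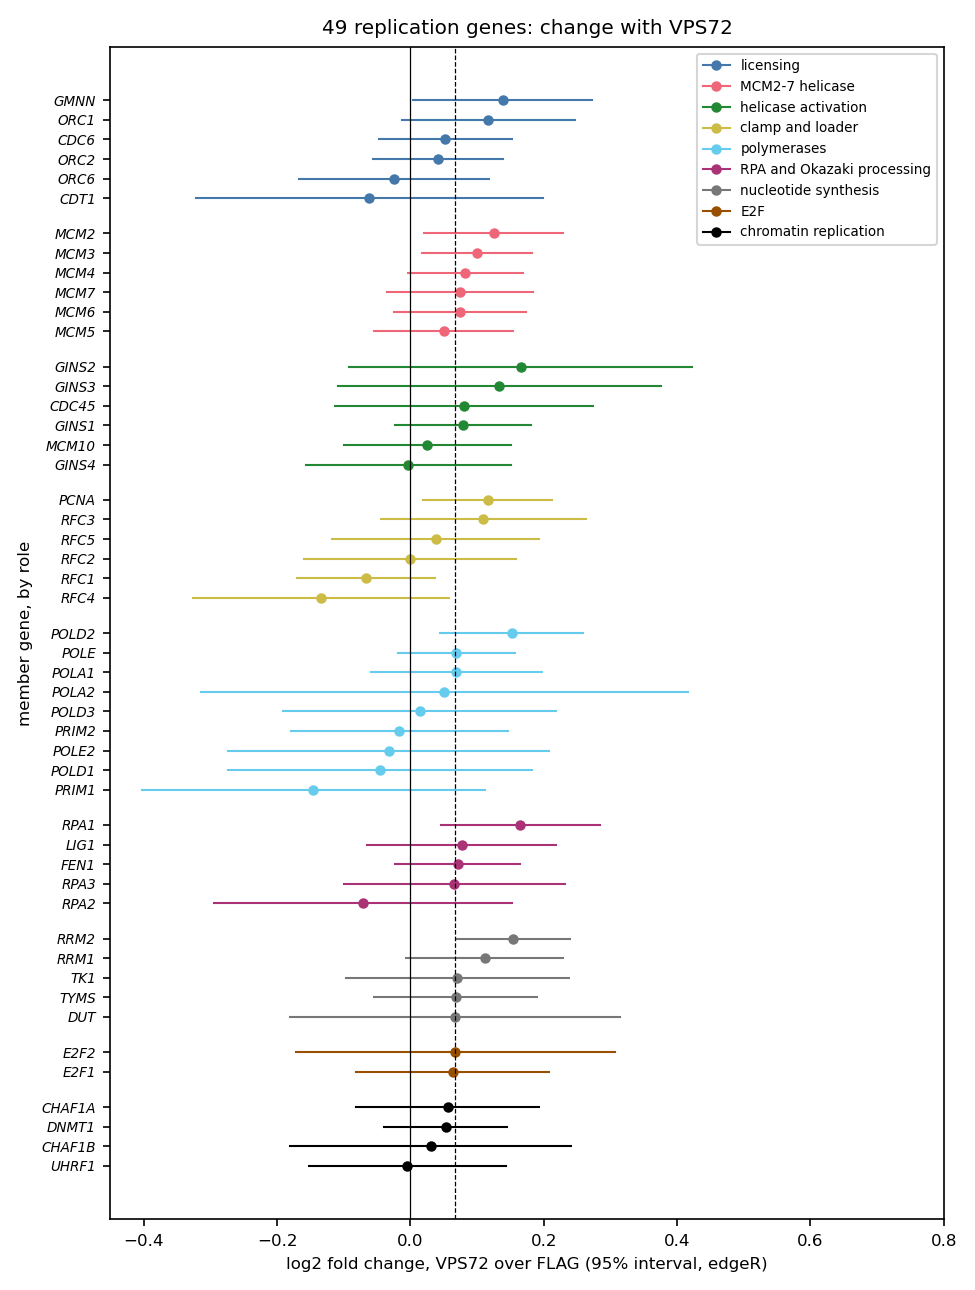
Log2 fold change of each of the 49 members (VPS72 over FLAG, points) with its 95% interval from edgeR (lines), grouped and coloured by role, with a solid line at 0 and a dashed line at the members' median of 0.07. Intervals of 7 members lie wholly above 0, and 37 of 49 points lie above 0.

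RPA, the heterotrimer that coats single-stranded DNA, was uneven over its subunits. RPA1 measured 59.6, 56.6 and 62.1 CPM in FLAG and 62.9, 68.4 and 68.5 CPM in VPS72. Its groups did not overlap, at a log2 fold change of 0.16 ± 0.06 (SE; edgeR, Benjamini-Hochberg adjusted p = 0.234). RPA2 measured 20.7, 26.5 and 28.6 CPM in FLAG and 24.7, 23.2 and 24.0 CPM in VPS72, so all 3 VPS72 libraries lay within the FLAG range, and its log2 fold change of -0.07 ± 0.10 (SE) took the opposite sign, 0.03, without FLAG replicate 3. RPA3 was at 0.07. The genes that process Okazaki fragments, the short pieces of the lagging strand, overlapped between groups. FEN1, the flap endonuclease, measured 108, 106 and 109.9 CPM in FLAG and 117, 109 and 113 CPM in VPS72, and LIG1, the ligase that seals the pieces, 41.6, 40.1 and 41.9 CPM in FLAG and 43.1, 46.6 and 40.4 CPM in VPS72. Their log2 fold changes were 0.07 ± 0.04 and 0.08 ± 0.07 (SE).

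The 5 nucleotide synthesis genes were all positive. Their summed level was 400.1, 434 and 407 CPM in FLAG and 446, 456 and 444 CPM in VPS72. The difference of 8.46% was the most of the 9 role groups, with no overlap. Sums did not overlap either for the helicase ring or for licensing (300 to 308 CPM in FLAG, 311 to 322 CPM in VPS72). The same held for RPA and Okazaki processing (258 to 273 CPM in FLAG, 276 to 281 CPM in VPS72), and the sums of the remaining role groups overlapped. RRM2, the small subunit of ribonucleotide reductase that limits the enzyme in S phase, carried the smallest p of the 49 members. It measured 183, 189 and 177 CPM in FLAG and 202, 204 and 205 CPM in VPS72. The VPS72 libraries were close to each other and 11.3% above FLAG, at a log2 fold change of 0.15 ± 0.04 (SE; edgeR, unadjusted p = 0.00137, Benjamini-Hochberg adjusted p = 0.101), which did not pass. RRM2 passed with DESeq2 (adjusted p = 0.00908), with no filter on low counts (adjusted p = 0.0413) and with GC and length trends removed (adjusted p = 0.0297), and its adjusted p ran up to 0.316 without FLAG replicate 1. RRM1, the large subunit, measured 93.5, 108 and 93.7 CPM in FLAG and 103, 108 and 107 CPM in VPS72, and TYMS, which makes thymidylate, 72.8, 84.7 and 76.2 CPM in FLAG and 83.7, 83.5 and 77.8 CPM in VPS72. For both, FLAG replicate 2 was the highest FLAG library and reached the upper VPS72 libraries. Log2 fold changes were 0.11 ± 0.06 (SE) for RRM1, 0.07 ± 0.06 (SE) for TYMS and 0.07 each for TK1, the thymidine salvage kinase, and DUT, which removes dUTP.

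**Figure D5:**
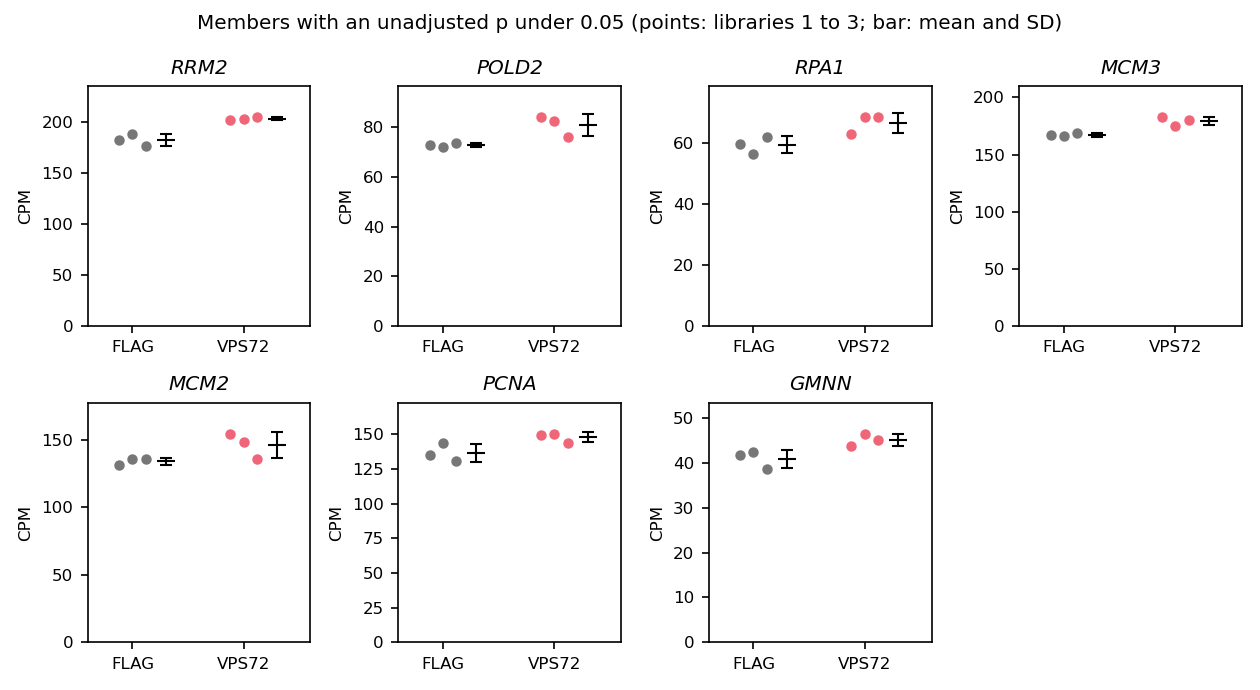
Levels (CPM, scaled to library size) in each FLAG and VPS72 library for the 7 members with an unadjusted p under 0.05, as points with the mean and SD of each group (n = 3). RRM2 shows FLAG libraries at 177 to 189 CPM and VPS72 libraries at 202 to 205 CPM.

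The E2F regulators were close between groups. E2F1, a transcription factor known to activate many replication genes, measured 58.0, 65.2 and 67.9 CPM in FLAG and 63.1, 72.9 and 63.5 CPM in VPS72, and E2F2 measured 13.9, 18.2 and 14.3 CPM in FLAG and 16.0, 16.5 and 16.2 CPM in VPS72. Both overlapped, with all 3 VPS72 libraries of E2F2 inside its FLAG range, at log2 fold changes of 0.06 ± 0.07 and 0.07 ± 0.11 (SE). Members whose promoter held an E2F match (23) had a median log2 fold change of 0.07 with 20 positive, and those with a window and no match (20) a median of 0.04 with 13 positive. The ranges, -0.06 to 0.17 and -0.15 to 0.16, overlapped, and the difference was not tested. RRM2 and PRIM1, whose windows are printed above, were both without a match and lay at 0.15 and -0.15.

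The 4 genes of chromatin behind the fork had a median of 0.04. CHAF1A and CHAF1B, subunits of the CAF-1 histone chaperone that deposits new nucleosomes, measured 38.2, 38.8 and 37.5 CPM in FLAG and 41.7, 39.1 and 38.3 CPM in VPS72, and 15.9, 18.2 and 18.5 CPM in FLAG and 18.0, 16.7 and 18.9 CPM in VPS72. DNMT1, the maintenance DNA methyltransferase, measured 135, 143 and 144 CPM in FLAG and 147, 149.6 and 141 CPM in VPS72. In all 3 at least 1 VPS72 library lay within the FLAG range, at log2 fold changes of 0.06 ± 0.06, 0.03 ± 0.10 and 0.05 ± 0.04 (SE). UHRF1, which guides DNMT1 to newly copied DNA, was at -0.00.

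No further gene of the same pathways passed the test. Of 62 listed, 60 were tested, 0 were called by edgeR (0.617% of all tested genes), and 6 were higher (10.0%) and 2 lower (3.33%) at an unadjusted p under 0.05, against 6.03% and 5.51% of all tested genes. Limma-voom called 0, and DESeq2 called 1, TFDP1 (adjusted p = 0.0206). Every VPS72 library lay above every FLAG library in 10 of the 60 (16.7%) and below in 2 (3.33%), against 8.76% and 8.47% of all tested genes. The 60 genes' median log2 fold change was 0.03, and 39 were positive (65.0%, against 48.8% of all tested genes). Their summed level was 3344 ± 39.6 CPM in FLAG and 3417 ± 8.72 CPM in VPS72 (SD, n = 3), a difference of 2.18% with no overlap. TFDP1, the dimer partner of E2F proteins, had the smallest p, at 64.1, 67.7 and 67.4 CPM in FLAG and 82.0, 77.5 and 72.2 CPM in VPS72. Its groups did not overlap, and its log2 fold change of 0.22 ± 0.05 (SE; edgeR, Benjamini-Hochberg adjusted p = 0.0887) did not pass. The smallest p among nucleotide supply genes was that of DHODH, an enzyme of pyrimidine synthesis, at 6.55, 8.95 and 9.31 CPM in FLAG and 5.32, 6.59 and 5.36 CPM in VPS72. Its groups overlapped by 1 library (log2 fold change -0.52 ± 0.17, SE; edgeR, Benjamini-Hochberg adjusted p = 0.2). PCLAF, a PCNA-binding protein, was at 0.29, TICRR, which helps fire origins, at 0.12, and the histone chaperone ASF1A at -0.10, with edgeR Benjamini-Hochberg adjusted p-values of 0.358, 0.383 and 0.568. RNASEH2A (2 to 14 counts per library) and PRPS2 (1 to 7) were too low to be tested.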

How the data were processed

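RNA levels were measured in 6 libraries of Huh7 cells, 3 FLAG and 3 VPS72, grouped and numbered by their titles. Per the labels' protocols, the RNA was extracted with RNAzol and made into libraries using a KAPA RNA HyperPrep kit. The authors deposited 1 table of estimated counts per gene, as whole numbers that were not normalized. The submitters' processing notes list STAR, RSEM, limma, hg19 and hg38, with no role for any of them. Reads that match several genes are shared out by such estimates, so near-identical genes are less certain, and the sources used here do not give whether strand was used. The members, the role groups and the other gene lists were chosen with earlier results of these data known.

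Genes were filtered with filterByExpr (minimum count 10, minimum total 15), which left 14253 of 37822 genes and 99.9% of counts. Counts were scaled by TMM (factors 0.989 to 1.013) and compared with edgeR's quasi-likelihood test (edgeR 4.0.16, R 4.3.3), with Benjamini-Hochberg adjustment over the tested genes and a threshold of 0.05. The common coefficient of variation between replicates was 7.24%, and each library was counted as 1 sample. Replicates differed by more than sampling noise (chi-square per degree of freedom 4.70 to 7.69), which does not show that they were separate cultures. The standard error is the log2 fold change over the square root of F, and 95% intervals use the t distribution. CPM is on the TMM-scaled library size, and lengths and GC content come from 1 transcript per gene of GENCODE 29. Levels per kilobase use that transcript, which may not be the isoform expressed. Sequences are from RefSeq, GRCh38.p14. The test script was tested on simulated data with known changes. The share of false calls was near the nominal level where counts were drawn with the fitted dispersion trend, and above it where they were drawn with the noisier gene-wise dispersions, so calls at the threshold may hold more false ones than the adjusted p states. Values in every library are given for VPS72, for the 3 members of each role group with the smallest p and for the 3 with the lowest fold change, with others added after their values were seen named as such. Alternatives were other scalings and filters, DESeq2 1.42.0, limma-voom (limma 3.58.1), a replicate block, abundance, GC and length trends removed, VPS72 left out, a threshold of 0.01, and each library left out.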

Additional observations from a re-analysis of the deposited data

How the results depend on the processing

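The counts of genes called across the table depended on the processing. Those of members were 0 or 1, where 0.172% to 1.75% of all tested genes were called. At such shares, counts among 49 members could hardly vary. Of all tested genes, 60 were called higher and 28 lower. These became 32 and 54 with library size only, 166 and 98 with no filter, 186 and 63 with DESeq2, 145 and 73 with GC and length trends removed and 21 and 11 at a threshold of 0.01. Limma-voom called 92 higher, and removing the abundance trend left 10 higher. With 1 library left out, 15 (FLAG replicate 1) to 61 (FLAG replicate 2) were higher and 9 (VPS72 replicate 1) to 39 (FLAG replicate 2) lower. Without each library other than FLAG replicate 2, both counts were lower by over 1.5 times. Members called higher were 0, and 1 (RRM2) with no filter, 1 with DESeq2 and 1 with GC and length trends removed. In these settings 1.06%, 1.75% and 1.53% of all tested genes were called in either direction. Members called lower were 0 under every alternative run. The other pathway genes gave 1 called higher (TFDP1) with no filter, 1 with DESeq2 and 1 with GC and length trends removed. The causes were not tested.

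The members' median log2 fold change of 0.07 was 0.04 with library size only, a scaling that moved the median of all tested genes to -0.04, and 0.04 with the abundance trend removed. With 1 library left out it was 0.05 to 0.08. The log2 ratio of summed levels, 0.0714, was 0.0399 with library size only and 0.0429 with the abundance trend removed. Between 34 and 42 members were positive over all alternatives. Of the 49 members, 33 kept their sign under every alternative run and 16 did not. These were 12 of the 22 members without values in every library by the naming rule, each within 0.07 of 0 on the log2 scale, and 4 of the other 27: CHAF1B was -0.00130 with library size only, -0.0363 without FLAG replicate 1 and -0.0103 without VPS72 replicate 3; E2F1 was -3.07e-05 without FLAG replicate 1 and -0.00373 without VPS72 replicate 2; E2F2 was -0.00367 without FLAG replicate 1; RPA2 was 0.0265 without FLAG replicate 3. With 1 library left out, CHAF1B ran from -0.0363 to 0.0809, E2F1 from -0.00373 to 0.111, E2F2 from -0.00367 to 0.203 and RPA2 from -0.197 to 0.0265.

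With the replicate number as a block, 18 genes were called higher and 14 lower, 0 of them members, and the adjusted p of RRM2 was 0.247. For libraries with the same number, deviations from the group means correlated at -0.05, 0.03 and 0.06. Not every library correlated best with its own number. With 3 libraries a group, these values cannot tell whether libraries with the same number were handled together. With 3 libraries a group, the 95% intervals of single members reached -24.4% (PRIM1) and 34.0% (GINS2).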
